A study of Homo sapiens with 6 samples.

Results

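Kruppel-like factors (KLF) are transcription factors that share 3 zinc fingers at the end of the protein. The 10 family members described here are KLF2, KLF3, KLF4, KLF5, KLF6, KLF7, KLF9, KLF10, KLF11 and KLF13, found by symbol among the 25287 genes of the authors' deposited table. KLF2 was chosen by its large log2 fold change there, and the rest because they are its relatives, so the values of this comparison are given as a description. The RNA came from NCI-H1299, an established human cell line described in the labels as lung adenocarcinoma. The groups were shALDH18A1, cells with a short hairpin RNA against ALDH18A1 (3 libraries), and shControl, cells with a control hairpin (3 libraries). ALDH18A1 encodes P5CS, a mitochondrial enzyme of proline synthesis, and the series title presents it as an RNA-binding protein that acts on translation. The labels give no hairpin sequence, no time after delivery, and no word on whether replicate libraries are separate cultures, so p-values may measure technical spread only.

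The table compares the groups once and holds for each gene 1 log2 fold change with its standard error (SE) and 1 mean normalized count, so library depth is unknown here. Its headers do not name the numerator. ALDH18A1 cannot settle the direction, because its log2 fold change per the authors' deposited table was -0.08 (SE 0.07 and DESeq2 adjusted p = 0.471) at a mean of 2661. Values above 0 are therefore called the positive side and values below 0 the negative side, and neither is assigned to shALDH18A1 or shControl. In bulk RNA, fewer cells with a transcript and less transcript per cell cannot be told apart.

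KLF proteins bind GC-rich and CACCC-type DNA, and the family divides by the partners outside the fingers. KLF3, KLF8 and KLF12 recruit the corepressor CtBP. KLF9, KLF10, KLF11, KLF13, KLF14 and KLF16 recruit the corepressor SIN3. KLF1, KLF2, KLF4, KLF5, KLF6 and KLF7 act mostly as activators. Many members are early response genes with short-lived mRNA, and KLF2 is best known as a quiescence factor of endothelial cells and T cells. In endothelial cells the kinase ERK5 and MEF2 factors switch it on.

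Promoter windows of RefSeq, which run from 250 bases before to 50 bases after a transcript start, were matched for 8 of the 10 members, with several starts for KLF5, KLF7 and KLF11. KLF3 and KLF10 were not matched. The windows of the positive members KLF2 and KLF9 and of the negative members KLF11, KLF6 and KLF4 are printed as examples. The KLF2 window lies at chr19:16324576-16324875 on the plus strand and KLF9 at chr9:70414608-70414907 on the minus strand. For KLF11 the window of its downstream start is shown, at chr2:10043971-10044270 on the plus strand. KLF6 lies at chr10:3785160-3785459 and KLF4 at chr9:107489720-107490019, both on the minus strand, all in GRCh38.p14. Capitals mark a MEF2 pattern (CTA, any 4 letters, TAG) in KLF2, a cyclic AMP response element (CRE, TGACGTCA) followed by a MEF2 pattern in KLF11, and an E-box (CACGTG) in KLF6 and KLF4. No capitals are set in KLF9, which held none of these.
KLF2: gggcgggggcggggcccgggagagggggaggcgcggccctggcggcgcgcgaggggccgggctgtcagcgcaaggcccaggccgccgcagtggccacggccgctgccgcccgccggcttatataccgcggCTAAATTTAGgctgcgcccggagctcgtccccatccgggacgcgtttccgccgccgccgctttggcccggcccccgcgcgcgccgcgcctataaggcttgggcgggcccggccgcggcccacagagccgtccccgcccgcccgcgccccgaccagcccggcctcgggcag
KLF9: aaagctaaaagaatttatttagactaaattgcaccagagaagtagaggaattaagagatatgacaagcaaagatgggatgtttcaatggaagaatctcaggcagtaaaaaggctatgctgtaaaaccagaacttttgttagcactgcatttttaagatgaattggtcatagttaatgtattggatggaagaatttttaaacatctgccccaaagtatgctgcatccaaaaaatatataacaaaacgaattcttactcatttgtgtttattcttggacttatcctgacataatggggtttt
KLF11: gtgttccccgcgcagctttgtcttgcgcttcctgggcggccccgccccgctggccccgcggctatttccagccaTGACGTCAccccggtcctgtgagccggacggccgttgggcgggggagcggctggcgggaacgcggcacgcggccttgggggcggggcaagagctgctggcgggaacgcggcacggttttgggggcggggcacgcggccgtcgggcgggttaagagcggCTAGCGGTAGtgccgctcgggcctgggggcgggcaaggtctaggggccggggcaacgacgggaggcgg
KLF6: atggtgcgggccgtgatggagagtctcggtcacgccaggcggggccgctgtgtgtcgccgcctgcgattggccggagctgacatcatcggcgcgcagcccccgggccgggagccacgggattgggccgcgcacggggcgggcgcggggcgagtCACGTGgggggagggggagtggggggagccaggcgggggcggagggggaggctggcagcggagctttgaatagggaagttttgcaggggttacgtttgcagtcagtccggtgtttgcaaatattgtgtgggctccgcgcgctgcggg
KLF4: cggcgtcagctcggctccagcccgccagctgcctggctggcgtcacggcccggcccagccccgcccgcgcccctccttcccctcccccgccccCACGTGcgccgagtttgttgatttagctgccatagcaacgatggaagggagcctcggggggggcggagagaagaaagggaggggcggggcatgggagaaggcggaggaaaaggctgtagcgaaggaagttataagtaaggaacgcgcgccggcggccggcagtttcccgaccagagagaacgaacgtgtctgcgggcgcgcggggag

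The match in the KLF2 window, CTAAATTTAG, starts at position -120 from the transcript start and has only A and T at its core. It is a letter match and no measurement of binding. A MEF2 pattern stood in 2.73% of all 35116 windows, and one with an A/T core in 0.572%. The KLF11 match, CTAGCGGTAG at position -18, has a core of other letters. A CRE stood in 1.85% of all windows and in that of KLF11 at position -176. An E-box stood in 7.26% of all windows and in 4 of the 13 windows of the members. The GC box (GGGCGG), which SP and KLF factors bind, stood in 15786 of the 35116 windows and in 8 of the 13. KLF2 held 6 of these boxes and KLF11 held 7 in the window shown. The KLF box (CACCC) stood in 59.9% of all windows and in 7 of the 13. The NF-Y box (CCAAT) stood in 34.6% of all windows and in 6 of the 13. The TATA box (TATAAA) stood in 11.5% of all windows and in 1 of the 13, a KLF5 window. An AP-1 site (TGANTCA, 7.71% of all windows) and an antioxidant element (TGACNNNGC, 13.3%) matched in none of the 13. All motifs were searched on both strands. KLF9 held no GC box, and its window had 32.7% G and C, under the 5th percentile of all windows (35.7%). It was matched at a single start. KLF5 and KLF7 also had windows with no GC box, with 40.7% G and C in KLF5 and 42.7%, 56.7% and 43.0% in KLF7. Another window of each held GC boxes, with 71.3% G and C in KLF5 and 70.0% in KLF7. The KLF2 window had 80.7%, above the 95th percentile (77.7%), and the median window had 58.7%.

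**Figure D1:**
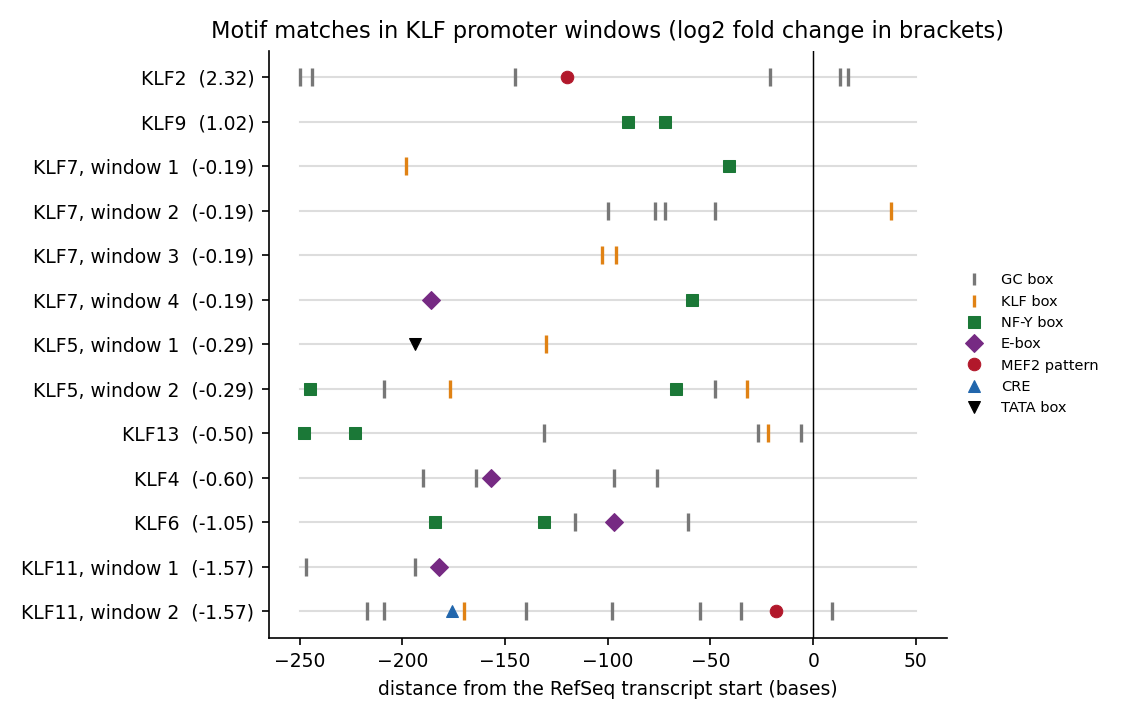
Motif matches in the 13 promoter windows of 8 members, by distance from the RefSeq transcript start in bases, with windows of the most positive member at the top and the log2 fold change in brackets. Each mark is 1 match on either strand; KLF2 carries 6 GC boxes and a MEF2 pattern, and KLF9 only 2 NF-Y boxes.

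With an adjusted p under 0.05 as the threshold, 2 of the 10 members passed on the positive side in the authors' deposited table (KLF2 and KLF9), 7 on the negative side (KLF10, KLF11, KLF3, KLF6, KLF4, KLF13 and KLF7), and KLF5 did not pass. Over all genes of the authors' deposited table, 42.4% were past the threshold, 20.9% on the positive and 21.5% on the negative side. All 10 members are well counted, so genes with a mean normalized count of 300 to 10000 are the nearer background. Among these 8551 genes 77.6% passed per the authors' deposited table, 32.8% on the positive and 44.7% on the negative side. The median log2 fold change of the members was -0.55 per the authors' deposited table, against -0.13 for those 8551 genes and 0.03 for all genes. With a log2 fold change of at least 1 as well, 2 members passed on the positive and 4 on the negative side in the authors' deposited table. The same rule took 10.9% and 7.06% of all genes of the authors' deposited table, and 11.7% and 9.66% of the 8551 genes. Since the members were chosen with this comparison known, nothing is read from these shares.

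**Figure D2:**
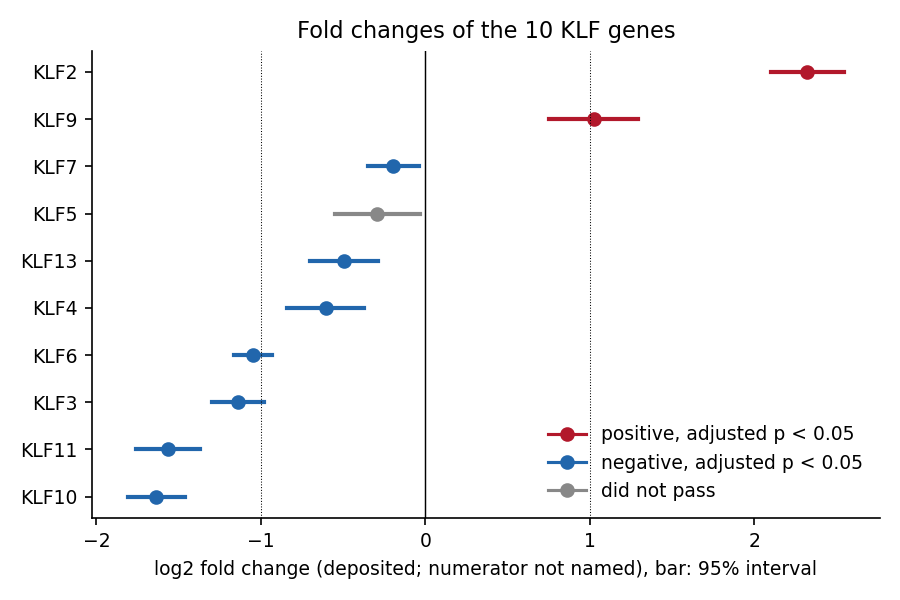
Log2 fold change of each of the 10 KLF genes per the authors' deposited table (points) with its 95% interval (bars); dotted lines mark -1 and 1. KLF2 at 2.32 and KLF9 at 1.02 lie alone on the positive side, and KLF10 at -1.64 and KLF11 at -1.57 are the lowest.

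KLF2 lies on chromosome 19 (16324817 to 16327874, plus strand, 3 exons). Its level implied by the authors' deposited table was 1260 normalized counts on the positive side, against 252 on the negative side. On the log2 scale its fold change per the authors' deposited table was 2.32 (SE 0.11, 95% interval 2.10 to 2.55), or 5.00-fold. Of the 8551 genes with a like count, 1.26% had a higher log2 fold change per the authors' deposited table. The interval of KLF2 did not meet that of any other member, which its choice by a large fold change makes likely. Its transcript is the shortest of the 10, with 2018 bases, and its coding sequence has 74.3% G and C, above the 95th percentile of 15335 coding genes (66.9%). KLF2-DT, a noncoding RNA whose RefSeq promoter window shares 255 bases with that of KLF2 on the other strand, had a log2 fold change of 1.21 (SE 0.75 and DESeq2 adjusted p = 0.203) per the authors' deposited table at a mean of 13.4. By the placement of these windows the RNAs run away from each other and do not overlap at their starts.

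KLF9, a repressor of the SIN3-binding group that glucocorticoid and thyroid hormone induce, was the other positive member. Its implied level was 516 normalized counts on the positive side in the authors' deposited table, against 254 on the negative side. The log2 fold change per the authors' deposited table was 1.02 (SE 0.14 and DESeq2 adjusted p = 5.78e-13), with an interval of 0.76 to 1.29. It was the least abundant member, with a mean of 385 normalized counts per the authors' deposited table. Its nearest relative here, KLF13, an activator of the chemokine gene CCL5 in T cells, lay on the negative side. KLF13 had an implied 1168 normalized counts on the positive side in the authors' deposited table, against 1649 on the negative side (log2 fold change -0.50, SE 0.11 and DESeq2 adjusted p = 9.75e-06).

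KLF10 and KLF11, the TGF-beta inducible early genes, were the lowest members. KLF10 (chromosome 8, 102648779 to 102655902, minus strand) had an implied 747 normalized counts on the positive side in the authors' deposited table, against 2320 on the negative side. Its log2 fold change per the authors' deposited table was -1.64 (SE 0.09 and DESeq2 adjusted p = 8.97e-76), or 3.11-fold. KLF11 (chromosome 2, 10042849 to 10054836, plus strand) had an implied 545 normalized counts on the positive side in the authors' deposited table, against 1615 on the negative side. On the log2 scale its fold change per the authors' deposited table was -1.57 (SE 0.10 and DESeq2 adjusted p = 2.41e-54), or 2.96-fold. The 2 values differed by 0.07 on the log2 scale, with a 95% interval of -0.19 to 0.33 for KLF11 minus KLF10 that includes 0. Of the 8551 genes with a like count, 1.89% lay lower than KLF10 and 2.27% lower than KLF11 per the authors' deposited table.

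The remaining activators had values below 0 of unlike sizes. KLF6, an injury-response factor and the most abundant member, had an implied 3794 normalized counts on the positive side in the authors' deposited table, against 7836 on the negative side. Its log2 fold change per the authors' deposited table was -1.05 (SE 0.06 and DESeq2 adjusted p = 1.43e-69). KLF4, a differentiation factor and one of the pluripotency reprogramming factors, had an implied 431 normalized counts on the positive side in the authors' deposited table, against 655 on the negative side (log2 fold change -0.60, SE 0.12 and DESeq2 adjusted p = 1.87e-06). KLF4 lay opposite KLF2, with which it shares many targets in endothelium. KLF7, a factor of neuronal outgrowth, had an implied 1893 normalized counts on the positive side in the authors' deposited table, against 2164 on the negative side. On the log2 scale its fold change per the authors' deposited table was -0.19 (SE 0.08 and DESeq2 adjusted p = 0.0385), and the call was lost when the fold changes were shifted to a median gene at 0 (adjusted p = 0.224). KLF5, a proliferation factor of epithelia, had an implied 398 normalized counts on the positive side in the authors' deposited table, against 487 on the negative side. Its log2 fold change of -0.29 (SE 0.13) per the authors' deposited table did not pass (DESeq2 adjusted p = 0.0620), and it did pass when genes with a mean under 10 were left out before adjustment (adjusted p = 0.0471).

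KLF3, the CtBP-binding repressor, had an implied 1244 normalized counts on the positive side in the authors' deposited table, against 2738 on the negative side. Its log2 fold change per the authors' deposited table was -1.14 (SE 0.08 and DESeq2 adjusted p = 1.28e-44). The antisense RNA KLF3-AS1, whose gene overlaps the start of KLF3 on the other strand, had a log2 fold change of 0.48 (SE 0.40 and DESeq2 adjusted p = 0.374) per the authors' deposited table. Reads of overlapping RNAs on opposite strands cannot be told apart without strand. KLF12, of the same CtBP-binding group, had 0.38 (SE 0.18 and DESeq2 adjusted p = 0.0851) per the authors' deposited table. KLF8 had a mean of 3.06 normalized counts per the authors' deposited table, too few to place it (log2 fold change 1.84, SE 1.45).

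Ordered by log2 fold change per the authors' deposited table, 39 of the 45 pairs of members had a difference whose 95% interval left out 0. All pairs with KLF2 are among these, and KLF2 was chosen by its fold change. The like share of pairs was not computed for other genes, of which 77.6% with a mean of 300 to 10000 passed the threshold. Nothing is therefore read from this count. Between neighbours in that order, the difference from KLF2 down to KLF9 was 1.30 (95% interval 0.95 to 1.65), and from KLF9 down to KLF7 it was 1.22 (0.91 to 1.53). KLF7, KLF5, KLF13 and KLF4 followed, and each neighbouring pair among them had an interval that included 0. KLF7 still lay 0.30 above KLF13 (0.04 to 0.56) and 0.41 above KLF4 (0.13 to 0.69). The difference from KLF4 down to KLF6 was 0.44 (0.18 to 0.70). The interval between KLF6 and KLF3 included 0, and the difference from KLF3 down to KLF11 was 0.43 (0.18 to 0.68). These intervals treat the fold changes of 2 genes as independent, although they come from the same libraries.

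Per kilobase of transcript, the order of the members differed between the sides. KLF6 was highest on both, with an implied 815 normalized counts per kb on the positive side in the authors' deposited table, against 1683 on the negative side. KLF2 stood second on the positive side with 624 per kb and ninth of 10 on the negative side with 125 per kb, computed from the authors' deposited table. KLF2 made up 22.1% of the summed level per kb of the 10 members on the positive side in the authors' deposited table, against 2.83% on the negative side. These places and shares of KLF2 restate the fold change by which it was chosen. KLF10 made up 8.55% on the positive side in the authors' deposited table, against 17.0% on the negative side. KLF9 was lowest on both sides of the authors' deposited table, with 99.8 per kb on the positive side, against 49.0 on the negative side. Summed over the 10 members of the authors' deposited table, the level was 2820 per kb on the positive side, against 4411 on the negative side. Sums and shares leave out other KLF genes such as KLF16, with a mean of 616 normalized counts per kb. The values carry no spread over libraries, so neighbours in these orders are not said to differ.

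**Figure D3:**
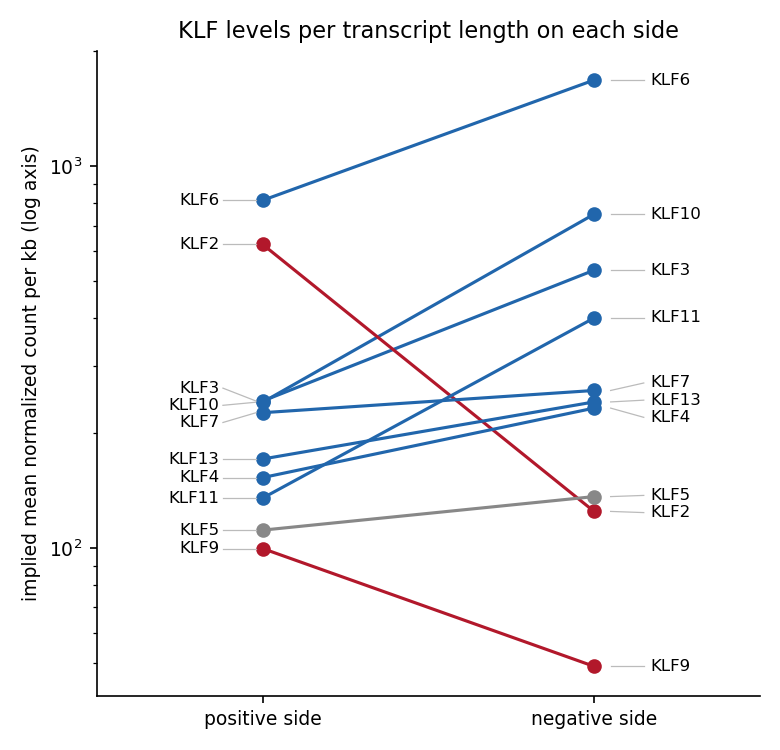
Mean normalized count per kb of transcript (log axis) implied by the authors' deposited table on the positive side (left) and the negative side (right), 1 line per KLF gene; red passed on the positive side, blue on the negative side, grey did not pass. The lines of KLF2 (624 and 125) and KLF9 (99.8 and 49.0) slope down and those of the 8 others slope up.

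In each of the 10 coding sequences the 3 fingers span 81 codons (243 bases). After the last finger KLF2, KLF3, KLF4, KLF5, KLF6 and KLF7 have 1 to 3 codons left, and KLF9, KLF10, KLF11 and KLF13 have 19 to 39. Identity over these bases ran from 55.1% to 83.5% across the 45 pairs, with a median of 65.0%. The closest relatives differed in how near their fold changes lay. KLF6 and KLF7, with 83.5% identity, differed by -0.85 in log2 fold change (KLF6 minus KLF7, 95% interval -1.05 to -0.66) per the authors' deposited table. KLF2 and KLF4, with 78.6%, differed by 2.93 (2.60 to 3.25) per the authors' deposited table and lay on opposite sides. The choice of KLF2 by its large fold change makes such a gap likely, so nothing is read from that pair. KLF9 and KLF13, with 75.3%, differed by 1.52 (1.18 to 1.86) per the authors' deposited table and also lay on opposite sides. KLF10 and KLF11, with 78.2%, were the only pair of these 4 whose interval included 0. The longest exact stretch shared by the coding sequences of any pair was 26 bases, between KLF6 and KLF7.

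Among other KLF genes of the authors' deposited table, KLF15, a metabolic regulator that glucocorticoid induces, had the largest log2 fold change (2.74, SE 0.61 and DESeq2 adjusted p = 3.07e-05) at a mean of 20.6. KLF16 was negative per the authors' deposited table (-0.31, SE 0.09 and DESeq2 adjusted p = 0.00224). KLF14 (0.55, SE 0.32) and KLF18 (-0.81, SE 1.98, mean 2.16) did not pass per the authors' deposited table (DESeq2 adjusted p = 0.165 and 0.805). Of the 6 SIN3-binding genes of the authors' deposited table, 1 was positive and 4 were negative past the threshold. Of 5 listed activators 1 was positive (KLF2, chosen by its value) and 3 negative, and of 3 CtBP-binding genes 1 was negative, per the authors' deposited table. Beside these counts, 32.8% of genes with a mean of 300 to 10000 were positive and 44.7% negative. Over all genes the shares were 20.9% and 21.5%, and nothing is read from the counts.

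**Figure D4:**
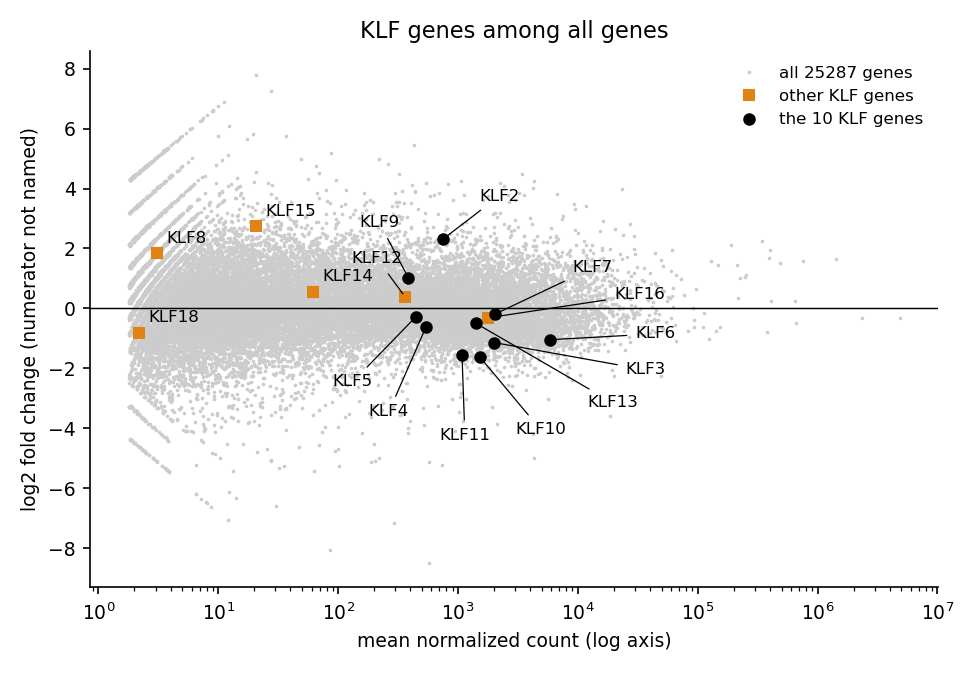
Log2 fold change against mean normalized count (log axis) of all 25287 genes of the authors' deposited table (grey), with the 10 KLF genes in black and 6 other KLF genes in orange. KLF2 stands near the upper edge of genes with a like count, while KLF8, KLF15 and KLF18 lie among genes with few counts.

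SP factors, the nearest relatives of the KLF family, bind the same GC boxes. Of 7 listed in the authors' deposited table, SP9 (2.44, SE 0.59 and DESeq2 adjusted p = 0.000147, mean 31.9) passed on the positive side and SP3 (-0.26, SE 0.07 and DESeq2 adjusted p = 0.000506) on the negative side. SP1 (0.12, SE 0.07), the abundant general activator, did not pass per the authors' deposited table (DESeq2 adjusted p = 0.187). SP2 (0.08, SE 0.42), SP4 (0.02, SE 0.24), SP6 (0.70, SE 0.41) and SP7 (1.98, SE 1.24) did not pass either per the authors' deposited table. The median of the SP factors was 0.12, against -0.55 for the 10 KLF genes, per the authors' deposited table. These sets differ in level, with a median mean of 42.8 normalized counts for the SP factors and 1244 for the 10 KLF genes. The 6 other KLF genes, with a median mean of 41.1, had a median log2 fold change of 0.46, so no contrast of the families is read from this.

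Beside the counts of the partner lists stand the shares for genes with a mean of 300 to 10000, of which 32.8% were positive and 44.7% negative. Of 13 corepressors and coactivators in the authors' deposited table, 4 were positive and 8 negative, with a median of -0.34. The corepressor genes CTBP2 (0.95, SE 0.09) and CTBP1 (0.39, SE 0.08), whose proteins KLF3 recruits, were positive per the authors' deposited table. The histone methylation subunit gene WDR5 (-0.96, SE 0.07) and the deacetylase gene HDAC1 (-0.75, SE 0.07) were negative, as was the SIN3-complex gene SIN3B (-0.56, SE 0.07), per the authors' deposited table. SIN3A did not pass per the authors' deposited table (0.03, SE 0.07). Of 6 ubiquitin ligase genes whose proteins act on KLF proteins, 1 was positive and 4 negative, with a median of -0.63, per the authors' deposited table. WWP1 (-0.84, SE 0.07), whose protein marks KLF2 and KLF5 for degradation, SMURF2 (-0.81, SE 0.07) and BTRC (-0.83, SE 0.10) were negative, and FBXW7 (0.90, SE 0.12) was positive, per the authors' deposited table.

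The ERK5 and MEF2 arm switches on KLF2 in endothelial cells. Of its 11 genes in the authors' deposited table, 2 were positive and 6 negative past the threshold (median -0.38). Among genes with a mean of 300 to 10000 the shares were 32.8% and 44.7%, and over all genes 20.9% and 21.5%. The 2 positive genes, MEF2C and HDAC4, had means below that range, and nothing is read from the counts. The kinase gene MAP2K5 did not pass (-0.04, SE 0.09), and MAPK7, which encodes ERK5, lay at -0.38 (SE 0.10 and DESeq2 adjusted p = 0.000307) per the authors' deposited table. MEF2D (-0.59, SE 0.07, mean 3618) was negative, MEF2C (1.16, SE 0.28, mean 124) was positive and MEF2A (-0.12, SE 0.10, mean 905) did not pass per the authors' deposited table. Of the deacetylases that silence MEF2 factors, HDAC9 (-1.09, SE 0.07), HDAC5 (-0.64, SE 0.09) and HDAC7 (-0.56, SE 0.07) were negative per the authors' deposited table. HDAC4 (1.52, SE 0.23, mean 156) was positive there.

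Genes known from endothelial cells to follow KLF2 lay on both sides. Of 7 chosen genes that KLF2 induces there, 5 were listed. Of these, S1PR1, a sphingosine phosphate receptor gene (1.11, SE 0.07, mean 2693), and CYP1B1 (1.00, SE 0.14) were positive per the authors' deposited table. NOS3, the endothelial nitric oxide synthase gene, was negative (-1.93, SE 0.40, mean 43.3), and NPPC and ASS1 did not pass, per the authors' deposited table. Of 4 that KLF2 represses there, 3 were positive per the authors' deposited table, the median being 1.65. The positive genes were the endothelin gene EDN1 (2.39, SE 0.26), the tissue factor gene F3 (1.07, SE 0.16) and the chemokine gene CCL2 (2.23, SE 0.54, mean 25.0) per the authors' deposited table. VCAM1, an adhesion molecule gene, did not pass at -1.83 (SE 1.26, mean 5.59) per the authors' deposited table. These 4 genes had means of 5.59 to 322 normalized counts. Of all genes in the authors' deposited table, 20.9% were positive and 21.5% negative. Nothing is read from the counts of both lists or from the median of 1.65. Endothelial markers were scarce in these cells. All 6 had means of 8.37 to 116 normalized counts per the authors' deposited table, with an implied sum of 353 on the positive side, against 274 on the negative side, and PECAM1 (2.53, SE 0.28) and KDR (-1.67, SE 0.38) passed on opposite sides. Of 5 blood and lymphoid markers, PTPRC and HBB (-3.09, SE 1.30, passing) were listed, with an implied sum of 10.4 on the positive side, against 26.7 on the negative side in the authors' deposited table. The 4 fibroblast markers had an implied sum of 364 on the positive side, against 229 on the negative side in the authors' deposited table. Of these, DCN (2.54, SE 0.55, mean 24.0) and PDGFRB (1.12, SE 0.21, mean 164) passed on the positive side, as KLF2 did, and COL1A1 and COL1A2 did not pass, per the authors' deposited table. The part of these cell types in the KLF2 values was not tested. Of 6 epithelial markers 5 were listed, and NKX2-1 was not. The keratins of epithelial cells KRT8 (0.32, SE 0.06, mean 18965) and KRT18 (0.61, SE 0.06, mean 14244) were positive per the authors' deposited table. EPCAM, CDH1 and KRT19, with means of 5.77 to 41.4, did not pass there. Of 4 mesenchymal genes, FN1 (1.10, SE 0.08, mean 3122) and ZEB1 (0.24, SE 0.10, mean 1097) were positive, VIM (-0.48, SE 0.06, mean 24591) was negative and CDH2 did not pass, per the authors' deposited table.

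In the TGF-beta arm, which induces KLF10 and KLF11 in many cells, all 10 genes passed per the authors' deposited table, 5 on each side, where 77.6% of genes with a mean of 300 to 10000 passed. The ligand genes TGFB1 (2.51, SE 0.07) and TGFB2 (2.14, SE 0.10) and the receptor gene TGFBR1 (1.44, SE 0.08) were positive per the authors' deposited table. TGFBR2 (0.61, SE 0.07) was positive too. The inhibitor gene SMAD7 (-2.30, SE 0.13), itself a TGF-beta target, lay on the negative side with KLF10 and KLF11 per the authors' deposited table. So did SMAD2 (-0.93, SE 0.08), SMAD4 (-0.41, SE 0.10) and SMAD3 (-0.32, SE 0.06). Of genes with a mean of 300 to 10000, 44.7% passed on that side. Of the related inhibitor genes SKIL and SKI, SKIL was negative (-1.30, SE 0.10) and SKI positive (1.03, SE 0.07) per the authors' deposited table. In the glucocorticoid arm, whose receptor induces KLF9 and KLF15, 1 of 6 genes was positive and 1 negative per the authors' deposited table. The receptor gene NR3C1 did not pass (-0.09, SE 0.07), the target SGK1 was positive (0.76, SE 0.07), FKBP5 was negative (-0.86, SE 0.07) and TSC22D3 did not pass (1.01, SE 0.80, mean 10.8) per the authors' deposited table.

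**Figure D5:**
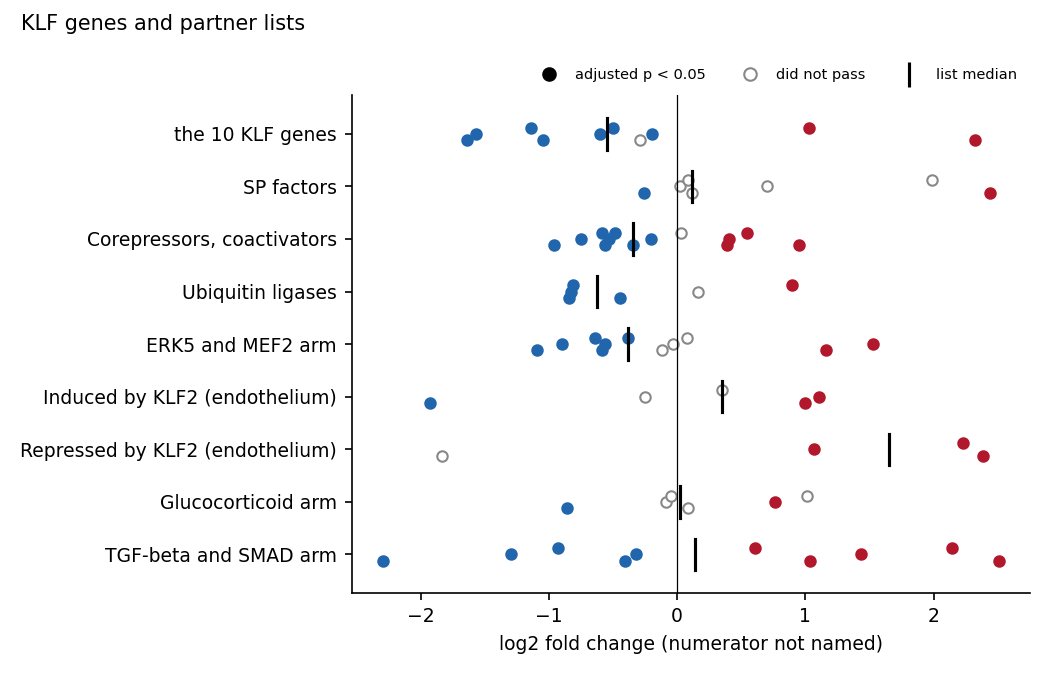
Log2 fold changes per the authors' deposited table for the 10 KLF genes and 8 lists of partner genes, 1 point per gene, filled where the adjusted p was under 0.05, red positive and blue negative, with the list median as a bar. The KLF median is -0.55, the ubiquitin ligases lie at -0.63 and the genes repressed by KLF2 in endothelium at 1.65. The last list holds only 4 genes, with means of 5.59 to 322 normalized counts.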

How the data were processed

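Total RNA of 6 NCI-H1299 libraries was sequenced, 3 for shALDH18A1 and 3 for shControl. The submitters' processing notes name fastp 0.23.2, STAR 2.7.10a, featureCounts, DESeq2 and the hg38 build. The sources used here do not give whether counting used strand, and values of single libraries were not analysed here.

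The table used holds the authors' own comparison. Per the file headers, baseMean is the authors' normalized count as a mean over libraries, a signal with no value per library. Fold change and SE are taken as log2 values as deposited by the authors, the scale on which DESeq2 reports them, although the header states neither base nor numerator. Each p-value, plain or adjusted, and the score that equals fold change over SE are as deposited by the authors. The authors' up and down calls follow an unadjusted p up to 0.0499, so the deposited adjusted p under 0.05 was used instead. Recomputing the Benjamini-Hochberg adjustment over 25287 genes gave the deposited values within 1.39e-15.

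The 10 members and all gene lists were chosen with earlier results of these data known. Intervals of 95% are the log2 fold change plus or minus 1.96 SE. The level on each side was computed from the mean and the fold change with groups of equal size assumed. The planned edgeR fit was not made, since it needs counts per library, and no other test per gene was added. Levels were divided by the length of 1 GENCODE release 29 transcript per gene (GRCh38), the main APPRIS form with the longest coding sequence. A match by symbol, Ensembl ID or Entrez ID was found for 22288 genes (88.1%). Promoter windows are from RefSeq (GRCh38.p14) and were searched on both strands. One gene of the lists is not reported here. All members and other KLF and SP genes are named, and of each list of partner genes up to 4 by adjusted p. Marker genes and any others named were chosen after their values were seen. Shifts of the fold changes and other thresholds were tried. Only the code for the median shift and for the adjusted p under 0.05 was tested on simulated data, in which far fewer genes changed than passed here. Python 3.11.15, numpy 2.4.6, pandas 2.3.3, scipy 1.17.1 and matplotlib 3.10.9 were used.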

Additional observations from a re-analysis of the deposited data

How the results depend on the processing

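No member changed sign under any of the 3 shifts, and none could. The shifts moved values by -0.12, 0.05 and 0.07, and the member nearest 0, KLF7, lay at -0.19. With a log2 fold change of at least 1, the negative members numbered 4, against 7 without it, and the other genes of the lists past the threshold 16 of the 47. KLF5 passed with a mean of at least 10 (-0.29, adjusted p = 0.0471) and with equal total counts (-0.41, adjusted p = 0.00532). KLF7 did not pass with equal total counts outside the mitochondrial genome (-0.15, adjusted p = 0.135) or with the median gene at 0 (-0.12, adjusted p = 0.224). Equal total counts moves all log2 fold changes by -0.12, and relative to that shift the members keep their distances. No paired analysis was possible because the table gives no values per library, so the replicate block, leaving out a replicate, the edgeR fit and DESeq2 were not run. Without values per library, the precision of a gene rests on its deposited SE, with a median of 0.0921 for means of 300 to 10000.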

Other observations

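The genes next to the members were read as values only. Of the 20 places held by the nearest listed coding gene on each side of a member, 9 passed in the authors' deposited table (2 positive, 7 negative), where 42.4% of all genes passed. With 8 of the 10 members below 0, 6 of the 9 lay on the side of their member, and nothing is read from that count. Both neighbours of KLF2 lay opposite to it in the authors' deposited table, AP1M1 at -0.64 (SE 0.06) and EPS15L1, 27.4 kb away, at -0.60 (SE 0.09). CYS1, 1.94 kb from KLF11, did not pass in the authors' deposited table (-0.19, SE 0.59). SMC5, 29.7 kb from KLF9, lay on the same side as KLF9 in the authors' deposited table (0.41, SE 0.10).

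The 3' untranslated regions of the members ran from 843 to 7076 bases with a median of 2754, against a median of 982 bases for 15335 coding genes. Those of KLF2 (843 bases) and KLF4 (899 bases) were shorter than that median. The pentamer ATTTA, the core of AU-rich elements that shorten mRNA life, stood there 3 or more times in 9 of the 10 members and in 40.1% of coding genes with such a region. KLF4 held fewer. Per kb the members had a median of 2.37 ATTTA, against 1.52 over coding genes. Coding genes with 3 or more ATTTA had a median log2 fold change of -0.01 in the authors' deposited table, and the others had -0.03.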
